A study of Mus musculus with 8 samples.

Results

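The Schlafen genes are a family of mouse genes named after the German word for sleeping, because the founding member slowed the growth of T cells when it was overproduced. The 7 members described here, Slfn1, Slfn2, Slfn3, Slfn4, Slfn5, Slfn8 and Slfn9, were taken by symbol from a table of 24972 genes. Of these, 5 had a mean of at least 10 normalized counts over the 8 libraries and were tested, and Slfn1 and Slfn4 lay at or near 0. The table also held 4 other entries with a Schlafen name, Slfn10-ps, Slfn14, Slfnl1 and Slfn5os, whose values are given beside those of the members.

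The study sequenced RNA from primary mouse embryonic fibroblasts, cultures grown from dissociated embryos of embryonic day 14 and passaged 2 times in DMEM with serum. It compared 4 genotypes with 2 libraries each, none of them treated: WT (wild type), Tfam+/- (1 of the Tfam alleles lost), Zbp1-/- (no intact Zbp1 allele) and Tfam+/-Zbp1-/- (both, called the double mutant). The Tfam protein coats mitochondrial DNA and starts its transcription. Zbp1 is an interferon-induced protein that senses nucleic acids in the Z form. Neither the strain nor the number of embryos behind each genotype's libraries is given in the sources used here. The p-values thus measure only the spread between these libraries, which may be technical.

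Schlafen proteins share a core that binds RNA, and for several members this core has been shown to cut or bind transfer RNA. The mouse family holds short members (Slfn1 and Slfn2), intermediate members (Slfn3 and Slfn4) and long members (Slfn5, Slfn8 and Slfn9), which add a helicase-like end. Several members are induced by type I interferon in fibroblasts and in immune cells, through a factor complex that binds a paired GAAA element in promoters.

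The genes lie in a cluster of 264 kb on chromosome 11 (chr11:82951349-83215154, build GRCm38, also called mm10). From the low end of the coordinates the order is Slfn5, Slfn9, Slfn8, Slfn10-ps, Slfn2, Slfn1, Slfn4 and Slfn3. Slfn9, Slfn8 and Slfn10-ps lie on the reverse strand and the others on the forward strand. All 7 members had a promoter entry in the RefSeq table of build GRCm38.p6, which runs from 250 bases before to 50 bases after each start. The 250 bases before the start are shown for the members whose levels differed most between genotypes (Slfn5, Slfn8 and Slfn2) and for Slfn9, whose promoter is a close copy of that of Slfn8. Each is written 5′ to 3′ on the strand of its gene, and capitals mark a match to the paired element GAAANNGAAA on either strand. The regions are chr11:82951852-82952101 for Slfn5 (forward strand), chr11:83020811-83021060 for the first of 2 Slfn8 starts (reverse), chr11:82991831-82992080 for Slfn9 (reverse) and chr11:83064862-83065111 for Slfn2 (forward). The Slfn5 region lies inside the annotated gene, which begins at 82951349, so the start used is not its outermost one. The bases before that outermost start were not searched.
Slfn5: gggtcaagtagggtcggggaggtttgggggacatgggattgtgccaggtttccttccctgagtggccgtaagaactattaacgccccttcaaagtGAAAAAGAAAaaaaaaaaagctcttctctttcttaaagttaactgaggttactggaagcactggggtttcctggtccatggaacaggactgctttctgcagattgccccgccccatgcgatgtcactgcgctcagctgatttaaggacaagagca
Slfn8: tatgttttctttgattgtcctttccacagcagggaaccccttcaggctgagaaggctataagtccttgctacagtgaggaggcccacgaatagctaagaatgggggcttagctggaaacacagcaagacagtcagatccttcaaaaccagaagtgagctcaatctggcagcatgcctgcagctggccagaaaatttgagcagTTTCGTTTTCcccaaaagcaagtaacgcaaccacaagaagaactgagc
Slfn9: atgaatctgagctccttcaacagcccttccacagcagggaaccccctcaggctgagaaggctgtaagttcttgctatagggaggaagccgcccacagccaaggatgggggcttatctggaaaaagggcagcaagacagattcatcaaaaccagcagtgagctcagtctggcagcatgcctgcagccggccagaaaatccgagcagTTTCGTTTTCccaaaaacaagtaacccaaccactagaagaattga
Slfn2: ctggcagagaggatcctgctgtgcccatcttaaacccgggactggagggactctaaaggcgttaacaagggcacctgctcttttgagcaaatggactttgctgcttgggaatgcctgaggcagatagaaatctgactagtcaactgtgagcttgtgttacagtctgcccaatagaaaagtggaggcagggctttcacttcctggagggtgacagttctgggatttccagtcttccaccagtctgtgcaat
In Slfn5 the match began 155 bases before the start of its promoter entry and ran into a stretch of A. The Slfn8 match began 48 bases and the Slfn9 match 45 bases before the start, with the same letters in both, and the other Slfn8 entry (chr11:83020673-83020972) held the Slfn8 match again. No match was found in the 300 bases of Slfn2, Slfn1, Slfn4 or Slfn3. A second element, the gamma-activated sequence TTCNNNGAA, which reads the same on both strands, was found in 0 of the 7 members' promoters. Of all 32851 promoters of this length, 1131 (3.44%) held the paired element and 2726 (8.3%) the second. In a list of 40 interferon-induced genes, 17 of the 31 with a promoter entry held the paired element. The 300 bases of Slfn8 and Slfn9 were identical at 248 of 292 aligned positions (84.9%), against 63.5% to 67.2% for the other pairs among these 4 promoters. A match describes letters in a window, and no binding was measured.

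The fibroblast identity was visible in all libraries: 10 of 10 fibroblast markers were above 0 in each genotype, with summed levels of 500520 to 737090 normalized counts. All 12 markers of macrophages and other myeloid cells were also above 0 in each genotype. WT libraries summed to 5136 to 5165, Tfam+/- libraries to 5966 to 6341, Zbp1-/- libraries to 3088 to 3404 and double mutant libraries to 2637 to 2648. Of 8 lymphocyte markers, Cd3e, Cd2 and Ms4a1 were among those at 0 in all libraries and the list summed to 12.1 to 19.1. Lck was above 0 in every library (10.2 to 19.1) and made up most of that sum. WT libraries held Tfam at 610.1 to 629 normalized counts, Tfam+/- libraries at 278 to 365, Zbp1-/- libraries at 471 to 675 and double mutant libraries at 375 to 424. Zbp1 lay at 3.19 to 7.34 in WT and 64.6 to 69.8 in Tfam+/-. It lay at 0.862 to 3.79 in the genotypes without Zbp1, for which the deleted stretch is not given. Libraries held 16752835 to 18303036 normalized counts. Tfam+/- replicate 1 and Zbp1-/- replicate 2 differed from the other libraries of their genotypes in the same direction. Across genes, the deviations of replicate 1 from the genotype mean in Tfam+/- and Zbp1-/- had a correlation of -0.698. With 2 libraries the deviations mirror each other. This value thus cannot tell whether these 2 libraries were shifted, or Tfam+/- replicate 2 and Zbp1-/- replicate 1. Tests are also given with a term shared by Tfam+/- replicate 1 and Zbp1-/- replicate 2 and over the other 6 libraries, both chosen after seeing the data. Such fits were not run for the other pair. In the 6-library fit Tfam+/- and Zbp1-/- have 1 library each, so its spread comes from WT and the double mutant alone. Both fits are built on a shift seen in these same values and give identical interaction estimates, so they are not separate evidence.

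Slfn1 and Slfn4 were close to undetected in these fibroblasts. Slfn1, the founding member, known from developing T cells, was at 0 in 7 libraries and at 0.995 in Tfam+/- replicate 2, which is the worth of about 1 read there. Slfn4, known from myeloid cells, was at 0 in 7 libraries and at 3.04 in Zbp1-/- replicate 1, about 3 times the value that repeats most often in that library. Slfn4 was thus at 0 in both WT, both Tfam+/- and both double mutant libraries, although the sums of myeloid markers differed between these genotypes. Its relation to the myeloid content was not tested. Neither gene was tested and no fold is given for them. Of the other entries, Slfn14, known from platelets and red cell precursors, and Slfn5os, a noncoding RNA on the strand opposite Slfn5, were at 0 in all 8 libraries.

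**Figure D1:**
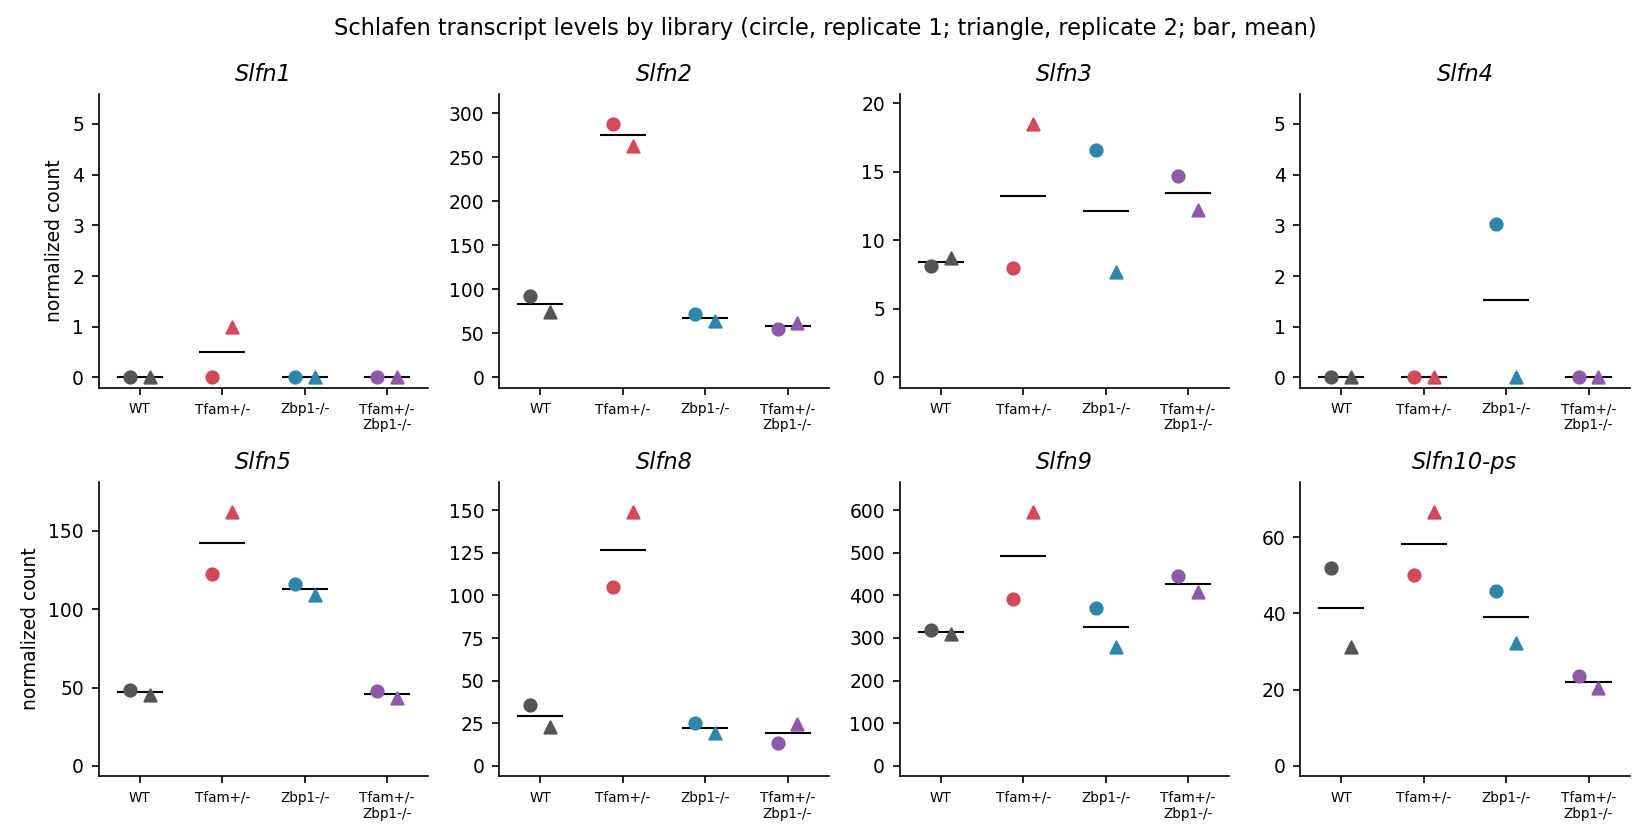
Normalized counts (vertical axis, linear, each panel on its own scale) of the 7 Schlafen members and Slfn10-ps in the 4 genotypes, with a circle for replicate 1, a triangle for replicate 2 and a bar for the mean of the 2 libraries. Slfn2, Slfn5 and Slfn8 sit highest in both Tfam+/- libraries, Slfn5 is also high in Zbp1-/-, and Slfn1 and Slfn4 lie at 0 in 7 libraries each.

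Slfn2 encodes a short Schlafen protein that binds transfer RNAs and is needed to keep T cells quiescent. The WT libraries held it at 92.4 and 74.7 normalized counts and the Tfam+/- libraries at 288 and 263. In Zbp1-/- it was at 72.0 and 64.0, and in the double mutant at 55.2 and 62.3. The libraries fell into the order Tfam+/-, WT, Zbp1-/- and double mutant, and neighbouring genotypes in this order did not overlap. The genotype means were 275 ± 17.8, 83.5 ± 12.5, 68.0 ± 5.64 and 58.7 ± 5.01 (SD, n = 2 each). Slfn2 rose in Tfam+/- against WT by 1.72 ± 0.17 (log2 change ± SE, 3.28-fold on the scale of log2(normalized count + 1), limma adjusted p = 0.010), and by the same 1.72 with the shared term. It fell by 2.21 ± 0.17 on the log2 scale from Tfam+/- to the double mutant (limma adjusted p = 0.0025). The steps from WT to Zbp1-/- (-0.29 ± 0.17, limma adjusted p = 0.37) and from WT to the double mutant (-0.50 ± 0.17, limma adjusted p = 0.29) did not pass, and the second passed with the shared term (limma adjusted p = 0.016). The order of the genotypes for Slfn2 was also the order of the summed myeloid markers. Lyz2 was the largest part of that sum (2855 of 5165 in WT replicate 1), and single markers could differ from it. Cd14 was at 125 and 150 in Zbp1-/- against 101 and 112 in WT. In Tfam+/- against WT, 10 of the 12 had a change above 0, but Ptprc and Mrc1 had -0.15 and -0.07. The part of myeloid cells in the Slfn2 levels was not tested. In such bulk samples, fewer cells of a type and less RNA per cell cannot be told apart.

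Slfn5 encodes a long, nuclear Schlafen protein that interferon induces in many cell types. WT libraries held 48.5 and 45.3 normalized counts of it, Tfam+/- libraries 122 and 162, Zbp1-/- libraries 116 and 109, and double mutant libraries 47.8 and 43.6. Each single mutant lay above WT in both libraries, whereas the double mutant overlapped WT. The means were 46.9 ± 2.30, 142 ± 27.8, 113 ± 4.97 and 45.7 ± 3.00 (SD, n = 2 each), and Tfam+/- did not overlap Zbp1-/-. Slfn5 rose in Tfam+/- (1.57 ± 0.18, log2 change ± SE, 2.96-fold, limma adjusted p = 0.019) and in Zbp1-/- (1.25 ± 0.18, 2.37-fold, limma adjusted p = 0.038) against WT. Its change from WT in the double mutant was -0.04 ± 0.18, with a 95% interval of -0.47 to 0.40. It fell by 1.60 ± 0.18 from Tfam+/- to the double mutant (limma adjusted p = 0.0058). From Zbp1-/- to the double mutant the change was -1.28 ± 0.18 (limma adjusted p = 0.056), just outside the threshold, and with the shared term it was -1.41 (limma adjusted p = 1.52e-05). Slfn5 was higher in both Zbp1-/- libraries than in WT, while the myeloid markers summed lower there. All 10 fibroblast markers and all 3 tested neural crest and glia markers had a change above 0 in Zbp1-/- against WT. Their medians were 0.47 and 0.39, against 0.11 over all genes. From Zbp1-/- to the double mutant, 2 of the 10 and 0 of the 3 had a change above 0 (medians of -0.33 and -0.98). In Tfam+/- against WT, where Slfn5 rose, 5 of the 10 and 1 of the 3 did (medians of -0.03 and -0.83). From Tfam+/- to the double mutant, where Slfn5 fell, 7 of the 10 and 2 of the 3 did (medians of 0.16 and 0.24). The part of these cell types in the Slfn5 levels was not tested. The reads of Slfn5 and of the overlapping Slfn5os cannot be told apart without the use of strand, which is not given.

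Slfn8 encodes a long Schlafen protein. WT libraries had 35.8 and 22.8 normalized counts, Tfam+/- libraries 105 and 149, Zbp1-/- libraries 24.9 and 19.4, and double mutant libraries 13.7 and 24.4. Both Tfam+/- libraries lay above every other library, and the other 3 genotypes overlapped their neighbours in the order of the means. The means were 29.3 ± 9.23, 127 ± 30.9, 22.1 ± 3.90 and 19.1 ± 7.55 (SD, n = 2 each). Slfn8 had the largest log2 change of the 5 tested members in Tfam+/- against WT, 2.09 ± 0.37 (4.26-fold), which did not pass (limma adjusted p = 0.082) and passed with the shared term (2.30, limma adjusted p = 5.06e-05) and over the 6 libraries (2.34, limma adjusted p = 0.00024). It fell by 2.70 ± 0.37 from Tfam+/- to the double mutant (limma adjusted p = 0.0094). Its changes from WT were -0.36 ± 0.37 in Zbp1-/- and -0.61 ± 0.37 in the double mutant, and neither passed (limma adjusted p = 0.55 and 0.57).

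Slfn9, a long member next to Slfn8, was the member with the highest normalized counts. WT libraries stood at 318 and 310.2, Tfam+/- libraries at 391 and 594, Zbp1-/- libraries at 371 and 279.5, and double mutant libraries at 444 and 407. Both Tfam+/- and both double mutant libraries lay above WT and above Zbp1-/-, and each of these pairs of genotypes overlapped within itself. The means were 314 ± 5.74, 493 ± 144, 325 ± 64.6 and 426 ± 26.2 (SD, n = 2 each). The change in Tfam+/- against WT was 0.62 ± 0.22 (limma adjusted p = 0.49), and with the shared term it was 0.87 ± 0.09 (limma adjusted p = 7.82e-07). From Tfam+/- to the double mutant the change was -0.18 ± 0.22 (limma adjusted p = 0.66), with a 95% interval of -0.72 to 0.35, and with the shared term it was -0.43 ± 0.09 (limma adjusted p = 0.00058). In Zbp1-/- against WT the change was 0.04 ± 0.22 (limma adjusted p = 0.93), which turned to -0.0725 after TMM scaling (by a trimmed mean of M-values). From WT to the double mutant it was 0.44 ± 0.22 (limma adjusted p = 0.50), and with the shared term 0.44 ± 0.08 (limma adjusted p = 0.00023). The lower Slfn9 value within Tfam+/- and within Zbp1-/- came from Tfam+/- replicate 1 and Zbp1-/- replicate 2.

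Slfn3, an intermediate member known from T cells and gut epithelium, was low in all libraries. WT libraries gave 8.11 and 8.69 normalized counts, Tfam+/- libraries 7.96 and 18.5, Zbp1-/- libraries 16.6 and 7.72, and double mutant libraries 14.7 and 12.2. Neighbouring genotypes in the order of the means overlapped throughout, while both double mutant libraries lay above both WT libraries. Tfam+/- replicate 1 and Zbp1-/- replicate 2 were the lowest values of the 8. None of its 6 comparisons passed: the changes were 0.49 ± 0.49 in Tfam+/-, 0.40 ± 0.49 in Zbp1-/- and 0.62 ± 0.49 in the double mutant, each against WT (limma adjusted p = 0.62, 0.62 and 0.68). The 95% interval in Tfam+/- against WT ran from -0.69 to 1.67 and so held both 0 and the 1.57 measured for Slfn5.

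Slfn10-ps, which lies between Slfn8 and Slfn2 and is annotated as misc_RNA, had 51.9 and 31.1 normalized counts in the WT libraries, 50.1 and 66.5 in the Tfam+/- libraries, 45.8 and 32.1 in the Zbp1-/- libraries, and 23.7 and 20.5 in the double mutant libraries. The double mutant lay below all other libraries and Tfam+/- overlapped WT. The change from Tfam+/- to the double mutant was -1.35 ± 0.32 (limma adjusted p = 0.062). The transcripts of Slfn8, Slfn9 and Slfn10-ps are 90.7% to 92% identical to one another, and those of Slfn3 and Slfn4 are 90.4% identical. Of the 50-base words in each gene's transcripts, 14.6% in Slfn8, 11.2% in Slfn9, 19.7% in Slfn10-ps and 7.39% in Slfn3 recur in another Schlafen gene, against 4.27% in Slfn2 and 0% in Slfn5. How reads from the shared stretches were divided is not given, so in this respect the values of Slfn8, Slfn9, Slfn10-ps and Slfn3 are less certain than those of Slfn2 and Slfn5. The words were compared on the strand of each transcript only, so they cannot show the overlap of Slfn5 with Slfn5os.

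On a scale per length, which allows genes to be compared, the order differed from that of the normalized counts. In WT, the mean level per kb of exon was 53.4 normalized counts for Slfn9 and 50.2 for Slfn2. Slfn5, Slfn8 and Slfn3 were lower, with levels of 7.77, 7.30 and 4.63 per kb. In Tfam+/- the mean level per kb was 166 for Slfn2 and 83.7 for Slfn9, and 31.6 for Slfn8, 23.6 for Slfn5 and 7.28 for Slfn3. Slfn2 and Slfn9 were thus close in WT, while Slfn2 was the most abundant Schlafen transcript per length in Tfam+/-.

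**Figure D2:**
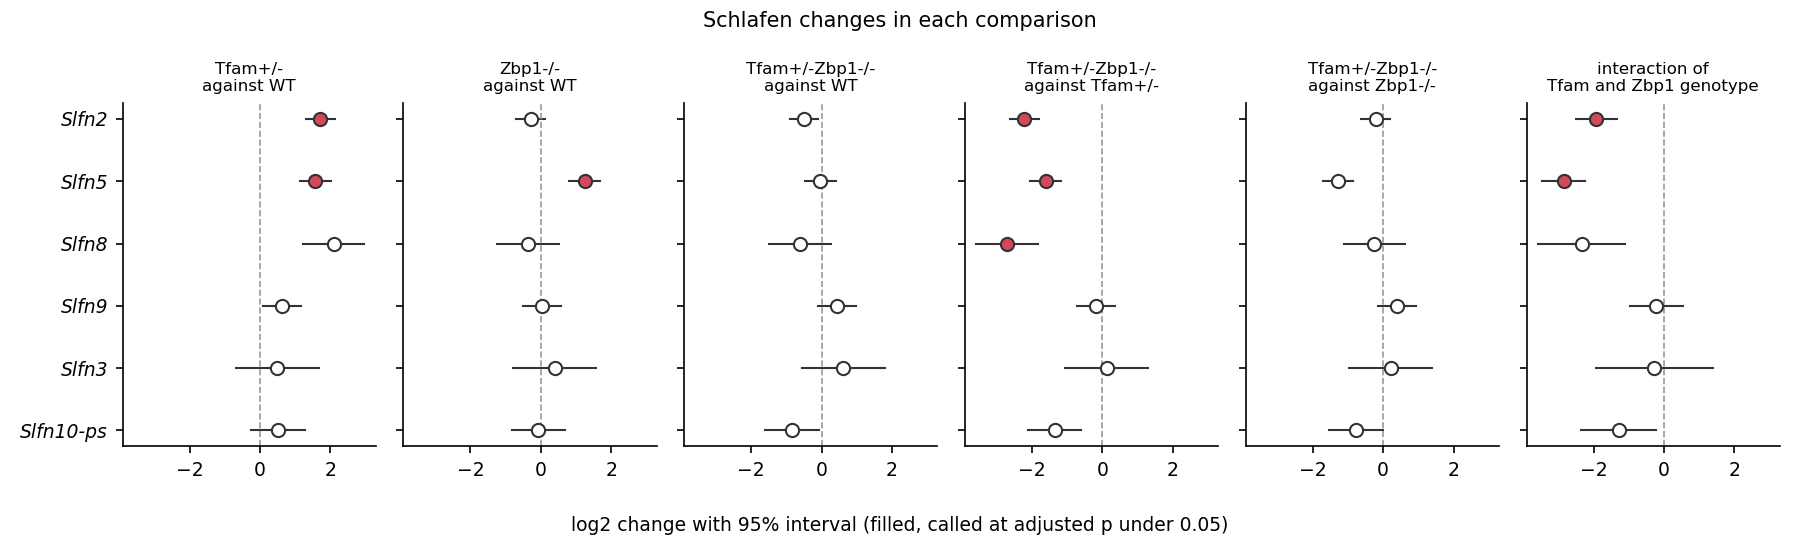
Log2 changes (horizontal axis, on the scale of log2(normalized count + 1)) of the 5 tested members and Slfn10-ps in the 6 comparisons, with bars for the 95% interval and filled points for an adjusted p under 0.05. Slfn2 and Slfn5 are filled in Tfam+/- against WT and in the interaction, Slfn5 in Zbp1-/- against WT, and Slfn2, Slfn5 and Slfn8 in the double mutant against Tfam+/-.

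In Tfam+/- against WT, which asks what the loss of 1 Tfam allele does, 2 of the 5 tested members were called (Slfn2 and Slfn5, both higher), where a call is a limma adjusted p under 0.05 over all 13267 genes tested. Of all genes, 0.731% were called. Slfn2, Slfn5, Slfn8 and Slfn9 lay higher in both Tfam+/- libraries than in both WT libraries, as did 23.3% of all genes. The members' median change was 1.57, against -0.01 over all genes. With the shared term 4 of 5 members were called against 15.6% of genes, and over the 6 libraries 4 of 5 against 15.4%. The Slfn2 call was lost without WT replicate 1 or 2, Tfam+/- replicate 1 or double mutant replicate 2 (changes of 1.56 to 1.87, adjusted p = 0.0503 to 0.14), and the Slfn5 call without WT replicate 1 or 2, Tfam+/- replicate 2 or either double mutant library (1.37 to 1.62, adjusted p = 0.057 to 0.23). For 1 gene, 2 libraries against 2 can give an exact permutation p of 0.333 at the least, so each call rests on the spread that limma pools over genes.

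In Zbp1-/- against WT, 1 of 5 tested members was called (Slfn5, higher), with 1.06% of all genes called. The members' median change was 0.04, against 0.11 over all genes. With the shared term 2 of 5 members (Slfn5 and Slfn9, both higher) and 35.6% of all genes were called, and over the 6 libraries 2 of 5 and 34.3%, so the members' share was near that of all genes in both. The Slfn5 call was lost without any 1 of the WT, Zbp1-/- or double mutant libraries (1.20 to 1.30, limma adjusted p = 0.10 to 0.33), while the change itself stayed between 1.14 and 1.37 under every alternative run.

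In the double mutant against WT, 0 of 5 members were called by limma (1 at an unadjusted p under 0.05, Slfn2), with 1.38% of all genes called. The members' median change was -0.04, against 0.12 over all genes. With the shared term Slfn2 (lower) and Slfn9 (higher) were called, 2 of 5 against 42.5% of genes, and over the 6 libraries 2 of 5 against 44.8%. These shares are near the background. The median of all genes moved to 0.0037 after TMM scaling, under which the Slfn2 change was -0.61 in place of -0.50.

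The double mutant against Tfam+/- asks how the levels of Tfam+/- cells change when Zbp1 is also lost. Here 3 of 5 tested members were called, all lower (Slfn2, Slfn5 and Slfn8), with 5.64% of all genes called. The same 3 lay lower in both double mutant libraries than in both Tfam+/- libraries, as did 13.5% of all genes. The members' median change was -1.60, against 0.14 over all genes. With the shared term 4 of 5 members (Slfn9 in addition) and 45.6% of genes were called, and over the 6 libraries 4 of 5 and 43.6%. All 3 calls were lost without either double mutant library (changes of -3.10 to -1.54, limma adjusted p = 0.053 to 0.087) and stood when any other single library was left out. This comparison shares the Tfam+/- libraries with that of Tfam+/- against WT, so the values of the members in the 2 comparisons are not independent.

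In the double mutant against Zbp1-/-, which asks what the loss of 1 Tfam allele does in cells without Zbp1, 0 of 5 members were called by limma (1 at an unadjusted p under 0.05, Slfn5), with 0.415% of all genes called. Slfn2 changed by -0.21 ± 0.17, with a 95% interval of -0.62 to 0.20 that does not reach the 1.72 measured between Tfam+/- and WT. For Slfn8 the interval was -1.12 to 0.62 and for Slfn9 -0.13 to 0.94. With the shared term 1 of 5 members (Slfn5) and 23.8% of all genes were called, and over the 6 libraries 1 of 5 and 23.4%. Slfn5 was also called after TMM scaling (limma adjusted p = 0.0495), where its change was -1.29. Leaving out Tfam+/- replicate 1 or 2 brought the Slfn5 change of -1.28 to a limma adjusted p of 0.042 or 0.045.

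The interaction compares the effect of losing 1 Tfam allele in cells without Zbp1 with its effect in cells with Zbp1. It was called for 2 of 5 members, Slfn2 (-1.92 ± 0.24, log2 difference ± SE, limma adjusted p = 0.030) and Slfn5 (-2.85 ± 0.26, limma adjusted p = 0.019), and for 0.663% of all genes. For Slfn2 the Tfam effect was 1.72 with Zbp1 and -0.21 without it, and for Slfn5 it was 1.57 with Zbp1 and -1.28 without it. Slfn8 had an interaction of -2.34 ± 0.52 (limma adjusted p = 0.12), Slfn9 of -0.22 ± 0.32 and Slfn3 of -0.28 ± 0.70. With the shared term 4 of 5 members (Slfn2, Slfn5, Slfn8 and Slfn9, all negative) and 16.9% of genes were called, and over the 6 libraries 4 of 5 and 19.1%. The Slfn2 call was lost without any 1 of 7 libraries, all but Tfam+/- replicate 2 (-2.08 to -1.77, limma adjusted p = 0.061 to 0.24), and the Slfn5 call without WT replicate 1 or 2, Zbp1-/- replicate 2 or either double mutant library (-2.92 to -2.78, limma adjusted p = 0.061 to 0.19).

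**Figure D3:**
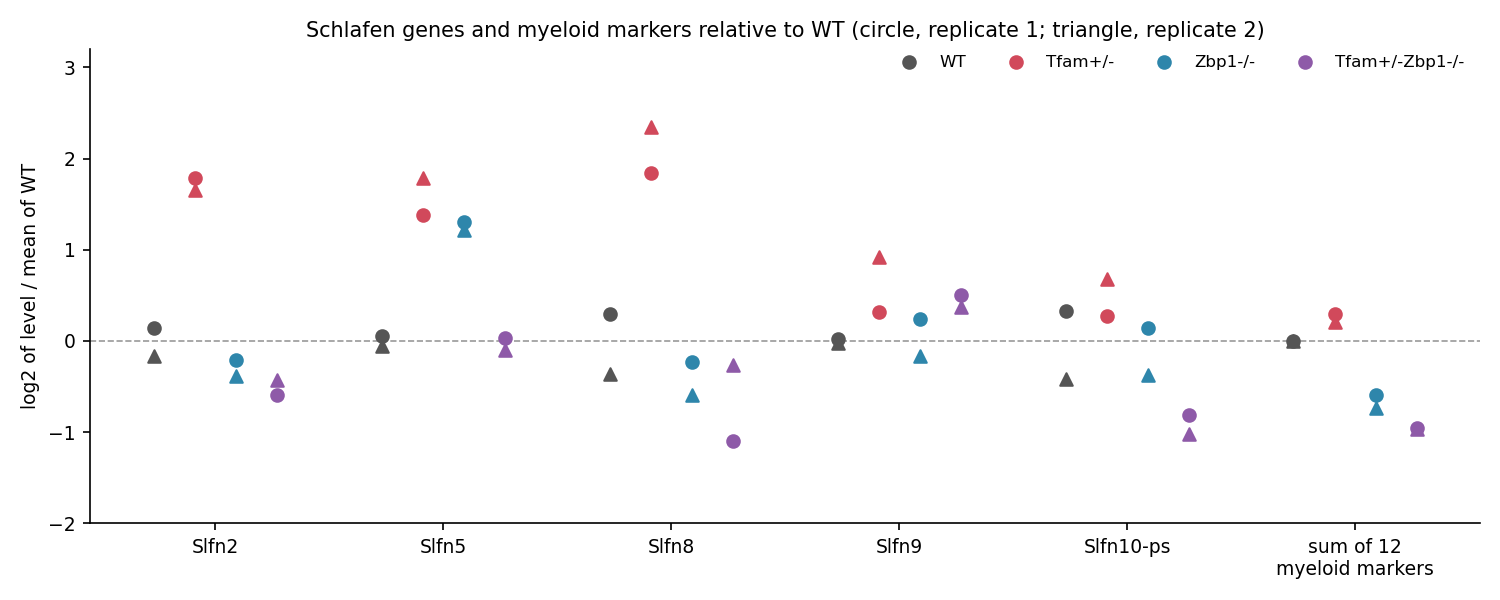
Log2 of the level in each library divided by the mean of the WT libraries (vertical axis) for 4 members, Slfn10-ps and the sum of 12 myeloid markers, with a colour for each genotype, a circle for replicate 1 and a triangle for replicate 2. Slfn2, Slfn5 and Slfn8 stand above the myeloid sum in both Tfam+/- libraries, and Slfn5 lies above WT in Zbp1-/- where the myeloid sum lies below it.

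Genes of the interferon pathway were counted in the same comparisons. In the list of 40 interferon-induced genes, all tested, 33 were called higher and 0 lower in Tfam+/- against WT by limma, with a median change of 2.66 against 1.57 for the 5 Schlafen members. From Tfam+/- to the double mutant, 33 of the 40 were called lower and 0 higher, with a median of -1.85 against -1.60 for the Schlafen members. In Zbp1-/- against WT limma called 0 of the 40 (16 at an unadjusted p under 0.05), with a median of 0.39. There 21 of the 40 were called higher and 2 lower with the shared term, and 19 and 2 over the 6 libraries, where 35.6% and 34.3% of all genes were called. Against WT, the double mutant had 2 of the 40 called higher and 39 with a change above 0, and a median of 0.63, while 2 of the 5 Schlafen members had a change above 0. Calls rose to 30 of the 40, all higher, both with the shared term and over the 6 libraries, against 42.5% and 44.8% of all genes called. The first genes of this list were Ifit1, Ifit2, Ifit3 and Ifit3b, which encode proteins that bind foreign RNA, and their changes in Tfam+/- against WT were 3.21, 0.29, 2.71 and 2.87 (limma adjusted p = 0.0032, 0.59, 0.0012 and 0.0081). Ifit1 had 119.7 and 115 normalized counts in the WT libraries, 869.8 and 1375 in the Tfam+/- libraries, 153 and 116 in the Zbp1-/- libraries, and 252 and 258 in the double mutant libraries, so that the double mutant stood above WT, unlike Slfn2 and Slfn8.

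Of 14 genes of interferon receptors and signalling, 3 were called higher in Tfam+/- against WT, and 3 lower and 1 higher in the double mutant against Tfam+/-. Stat2 (1.69 and -1.23 in the 2 comparisons) and Irf9 (1.48 and -0.93), both parts of the complex that binds the paired GAAA element, were among those called in each, and were named after their values were seen. The gene called higher in the double mutant was Ifnar1, a chain of the type I interferon receptor, with a change of 0.65. The other receptor chains at the head of the list, Ifnar2, Ifngr1 and Ifngr2, had changes of 0.02, -0.06 and 0.13 in Tfam+/- against WT and were not called. In Zbp1-/- against WT, in the double mutant against WT and in the double mutant against Zbp1-/-, limma called 0 of the 14 (7, 7 and 2 at an unadjusted p under 0.05). Adding the shared term, 11 were called higher in the first, 10 higher and 1 lower in the second, and 2 higher and 2 lower in the third. Of all genes, 35.6%, 42.5% and 23.8% were called there with that term. In the interaction the fit of all 8 libraries called 2 of the 14, both negative, Stat2 (-1.70) and Irf9 (-1.19).

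Among 18 genes that cut or process transfer RNA, the substrate of several Schlafen proteins, limma called 0 in each of the 6 comparisons. At an unadjusted p under 0.05 the counts were 1, 3, 1, 5, 3 and 3 of 18 in the order of the comparisons above. With the shared term 3, 6, 7, 11, 6 and 3 of the 18 were called. Of all genes, that fit called 15.6%, 35.6%, 42.5%, 45.6%, 23.8% and 16.9% in the same order. The median changes of the 18 genes over all 8 libraries lay between -0.23 and 0.20. Ang, which cuts transfer RNA, had a change of 0.35 in Tfam+/- against WT. The changes there of Rnh1, an inhibitor of ribonucleases, and Rnaset2a, an acid ribonuclease, were 0.33 and 0.23.

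**Figure D4:**
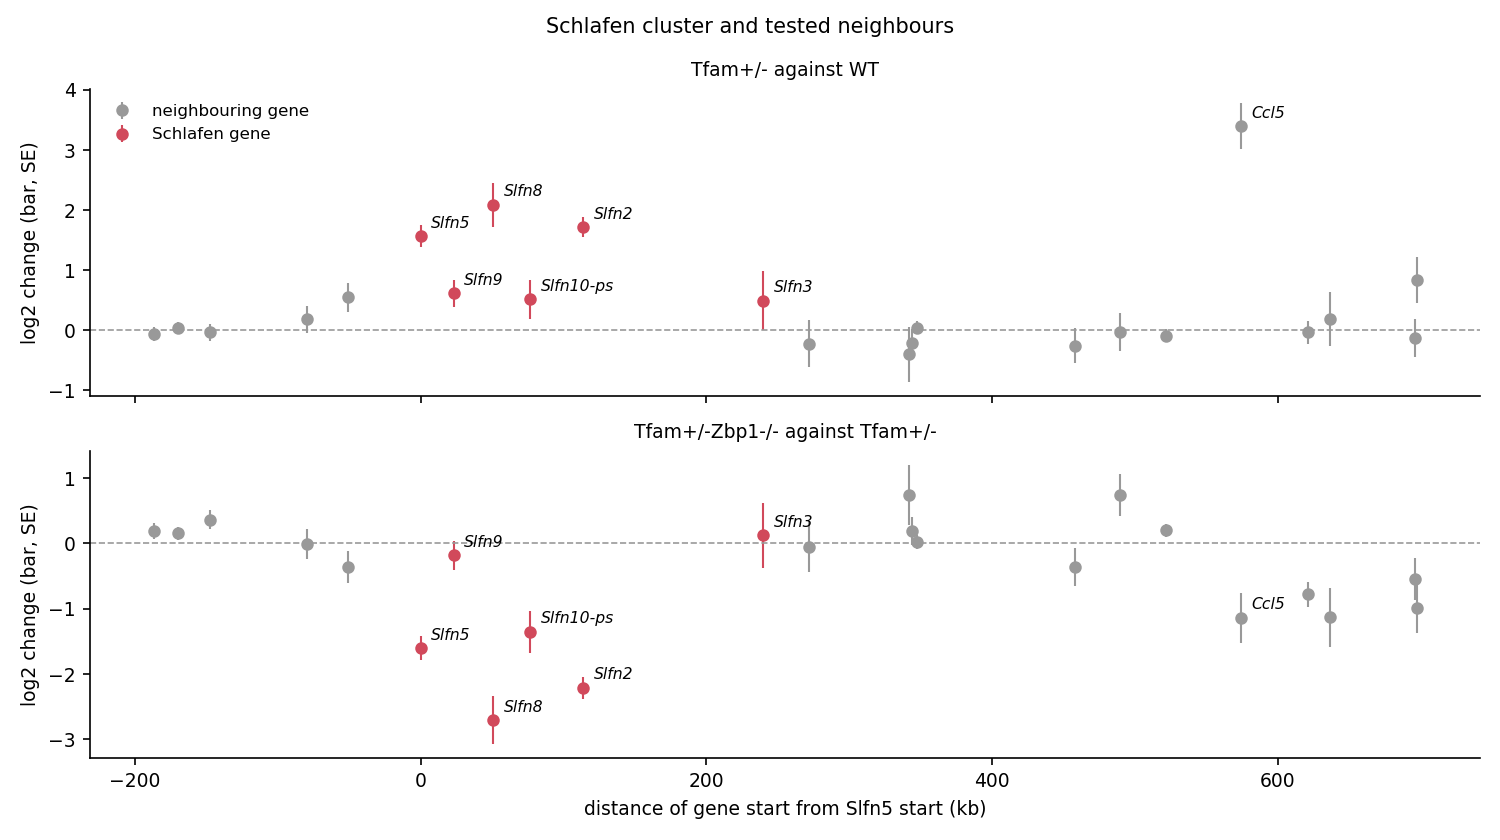
Log2 change (vertical axis, bars for the SE) of the tested Schlafen genes (red) and of the 17 tested neighbours within 500 kb (grey). The top panel shows Tfam+/- against WT and the bottom panel the double mutant against Tfam+/-. The horizontal axis is the distance in kb between the low end of each gene's coordinates and that of Slfn5. The axis calls this low end the gene start, also for genes on the reverse strand. In the top panel Ccl5 is at 3.40 and the other grey points lie between -0.40 and 0.83. In the bottom panel the grey points lie between -1.14 (Ccl5) and 0.74.

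The neighbouring genes on the chromosome were counted in the same way. Within 500 kb of the cluster, 55 other genes are annotated, 31 were in the table and 17 were tested. In Tfam+/- against WT 1 of the 17 was called, Ccl5 (3.40), a chemokine that interferon and infection induce, which was also called in the double mutant against WT (2.26). In the other 4 comparisons limma called 0 of the 17, with 5, 5, 3 and 1 at an unadjusted p under 0.05 in Zbp1-/- against WT, the double mutant against Tfam+/-, the double mutant against Zbp1-/- and the interaction. The fit with the shared term called 1 of the 17 in Tfam+/- against WT (higher), 3 in Zbp1-/- against WT (higher), 6 in the double mutant against WT (4 higher and 2 lower) and 5 against Tfam+/- (3 higher and 2 lower). Of all genes, it called 15.6%, 35.6%, 42.5% and 45.6% in these comparisons. The neighbours' median change was -0.04 in Tfam+/- against WT and -0.01 in the double mutant against Tfam+/-, where the Schlafen members had 1.57 and -1.60. In the second of these comparisons 8 of the 17 had a change above 0, and the range was -1.14 to 0.74. The chemokine genes Ccl5, Ccl6, Ccl4, Ccl9 and Ccl3 had changes of -1.14, -1.13, -0.985, -0.78 and -0.545 there.

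Myeloid cells express Schlafen genes, and markers of these and of other cell types differed between the genotypes too. Of the 12 markers, limma called 0 in Tfam+/- against WT (5 at an unadjusted p under 0.05), with a median change of 0.34 against 1.72 for Slfn2 and 1.57 for Slfn5. Under the shared term 5 of 12 were called higher there, against 15.6% of all genes called, with a median of 0.30. From Tfam+/- to the double mutant 9 of 12 were called lower, with a median of -1.19 against -2.21 for Slfn2, -1.60 for Slfn5 and -2.70 for Slfn8. In Zbp1-/- against WT 1 of 12 was called, lower, with a median of -0.52, and in the double mutant against WT 4, all lower, with a median of -0.93. In the double mutant against Zbp1-/- and in the interaction limma called 0 of 12 (5 and 8 at an unadjusted p under 0.05). Under the shared term 9 of 12 were called lower in Zbp1-/- against WT and 12 of 12 in the double mutant against WT and against Tfam+/-. Of all genes, 35.6%, 42.5% and 45.6% were called in these comparisons. The same fit called 7 of 12 lower against Zbp1-/- and 8 of 12 below 0 in the interaction, where 23.8% and 16.9% of all genes were called. Of the 5 epithelial markers, 2 were tested, Krt8 and Krt18, and both were called lower from Tfam+/- to the double mutant (-1.19 and -1.64, limma adjusted p = 0.043 and 0.0084). Their median interaction was -1.52, and 0 of the 2 were called there by limma (both at an unadjusted p under 0.05, and both called with the shared term). The 5 epithelial markers summed to 228 to 236 in WT, 273 to 402 in Tfam+/-, 217 to 263 in Zbp1-/- and 119.7 to 138 in the double mutant, and Epcam, Cdh1 and Krt5 stayed at or below 6.34 in all libraries. Of the 5 endothelial markers, 3 were tested, and Emcn was called lower from Tfam+/- (70.4 and 73.5 normalized counts) to the double mutant (18.9 and 15.7, limma adjusted p = 0.0037). Kdr changed by -0.54 there (limma adjusted p = 0.10). Tek went the other way by 1.31, from 25.1 and 49.5 to 89.0 and 89.4 (limma adjusted p = 0.061). The fit with the shared term called 2 of these 3 lower and 1 higher there, against 45.6% of all genes. The endothelial markers summed to 338 to 356 in WT, 396 to 459.5 in Tfam+/-, 273 to 310.0 in Zbp1-/- and 318 to 337 in the double mutant. The part of these cell types in the Schlafen levels was not tested.

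Likeness of pattern was measured as Pearson's r of log2(normalized count + 1) over the 8 libraries, among 13266 other tested genes, as a description only, since the libraries share their genotypes and the shift of 2 libraries. Slfn2 was most like Zbp1 (r = 0.99), Axl (0.98) and Slfn8 (0.98). Slfn8 was most like Zbp1 (0.99), Slfn2 (0.98) and Ccl20 (0.97). Zbp1 is itself a targeted gene, so its low values in 2 of the genotypes carry its own deletion. Slfn5, with its separate rise in Zbp1-/-, was most like Lama2 (0.98), Apobec1 (0.97) and Lrrfip2 (0.96), and its r with Slfn2 was 0.66 and with Slfn8 0.65. Slfn9 was most like Pnp (0.97), Aste1 (0.97) and Eif2ak2 (0.96), the last an interferon-induced kinase that senses double-stranded RNA. Slfn3 was most like Cask (0.98), Shox2 (0.96) and Rab7 (0.95). Slfn3 and Slfn9 were both lower in Tfam+/- replicate 1 and Zbp1-/- replicate 2 than in the other library of the same genotype. The r between Slfn3 and Slfn9 was 0.79, and that between Slfn3 and Slfn2 was 0.04.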

How the data were processed

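RNA was measured by sequencing in 8 libraries, grouped by the genotype in their labels. Reads were aligned with STAR 2.6.1a to mm10 with RefSeq genes, and Salmon is listed too, per the submitters' processing notes; the series' design text names RNAseq Alignment 2.0.0 and RNA-seq Differential Expression 1.0.0 of BaseSpace. Per gene and library, the authors deposited a normalized count, treated here as a signal at or above 0 with decimals. The sources used here do not say how reads were counted and scaled, or whether strand was used. Only 22.2% to 35% of values of up to 20 reads lay within 0.01 of whole reads, so no count model was run and counting error is unknown.

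limma 3.58.1 in R 4.3.3 (lmFit, eBayes with trend) fitted log2(normalized count + 1) for 13267 genes with a mean of at least 10, all 4 genotypes in 1 fit, two-sided, with Benjamini-Hochberg adjustment over all genes; 4 residual and 2.77 prior degrees of freedom supported it. The adjusted p-values are computed here and not the authors'. The fit was tried on simulated data with the same spread in every gene and no shift shared by libraries. That trial does not cover data with such a shift. The fits with the shared term and over 6 libraries had 3 and 2 residual and 15.1 and 14.6 prior degrees of freedom. A fold understates the change of low genes. For the interaction, the change of Tfam+/- from WT was subtracted from the change of the double mutant from Zbp1-/-. Other settings were a pseudocount of 5 or 0.1, a minimum mean of 50 or none, scaling by the trimmed mean of M-values, a prior without trend, only the genotypes compared, a replicate block, and leaving out each library. Exon lengths, strands, transcript identities and shared 50-base words are from GENCODE M21. Gene positions are from RefSeq genes, and promoters from RefSeq GRCm38.p6. Named genes were the members, other Schlafen entries, the targeted genes, the 3 most alike genes of each member and the first 4 tested genes of each list; some of the genes so chosen are not reported here. Members and lists were chosen with earlier results of these data known.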

Additional observations from a re-analysis of the deposited data

Results flagged for a closer look

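For 2 members limma's interaction test found that the change on losing 1 Tfam allele was not the same with and without Zbp1. For Slfn2 the difference between the effects was -1.92 on the log2 scale, the change being 1.72 with Zbp1 and -0.21 without it. For Slfn5 the difference was -2.85, with a change of 1.57 with Zbp1 and -1.28 without it. Slfn5 was higher than WT in each single mutant, and its double mutant libraries overlapped WT. The Slfn2 call was lost without any 1 of 7 libraries and the Slfn5 call without any 1 of 5. Both were called with the shared term and over the 6 libraries, but these fits give the same estimates as each other and were built on a shift seen in these data, so they do not add separate evidence.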

How the results depend on the processing

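Of the values recomputed under other settings, 523 kept their direction and side of the threshold, 34 came past it, 44 were lost and 23 changed direction. For Tfam+/- against WT, members called were 0 in a fit of only the genotypes compared and 4 with the shared term or over 6 libraries, and 0 to 2 with 1 library left out. For Zbp1-/- against WT they were 0 with no filter, after TMM scaling or in only the genotypes compared, 2 with the shared term or 6 libraries, and 0 to 1 with 1 library left out. For the double mutant against WT they were 2 in only the genotypes compared, with the shared term and over 6 libraries. Against Tfam+/- they were 0 to 3 with 1 library left out. Against Zbp1-/- they were 1 after TMM scaling, without trend, with the shared term and over 6 libraries, and 0 to 1 with 1 library left out. For the interaction they were 1 with no filter, 4 with the shared term or 6 libraries, and 0 to 2 with 1 library left out. The cause was not tested.

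With the replicate number as a block, members called fell to 0 in Tfam+/- against WT, to 0 in Zbp1-/- against WT and to 0 in the interaction, and stayed at 3 in the double mutant against Tfam+/-. Over all genes the block left 28, 1, 8, 351, 1 and 0 calls in the 6 comparisons, against 97, 141, 183, 748, 55 and 88. Same-numbered libraries correlated at -0.698 to 0.059 across genotypes. The -0.698 is the shift described above, and the labels do not say how replicates were prepared. These values thus cannot decide whether the numbers pair the samples. A fit of only the genotypes compared called 28, 1, 5935, 359 and 1 genes in the first 5 comparisons.

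None of the changes of direction concerned a called value. With 1 library left out, Slfn3 ranged from -0.069 to 1.05 in Tfam+/- against WT and from -0.11 to 0.91 in Zbp1-/- against WT. In the double mutant against Tfam+/- it was -0.0096 after TMM scaling, -0.41 with the shared term, -0.44 over 6 libraries, and -0.44 to 0.69 with 1 library left out. Against Zbp1-/- it was -0.32 with the shared term, -0.29 over 6 libraries, and -0.29 to 0.72 with 1 left out, and in the interaction -0.84 to 0.29. Slfn9 in Zbp1-/- against WT was -0.0725 after TMM scaling and -0.17 to 0.24 with 1 left out, when it was also -0.48 to 0.12 in the double mutant against Tfam+/- and -0.52 to 0.0851 in the interaction. Slfn10-ps in Zbp1-/- against WT was 0.16 with the shared term, 0.18 over 6 libraries, and -0.43 to 0.30 with 1 left out. With 1 left out, Slfn5 in the double mutant against WT was -0.10 to 0.029, and Slfn8 in the double mutant against Zbp1-/- was -0.64 to 0.14.

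With 2 libraries per genotype the spread of a genotype rests on 1 degree of freedom, and where 1 library is left out, or only the 6 libraries are used, a lone library is assumed to vary like the other genotypes. Depth was not varied. Slfn1 and Slfn4 were at 0 in 7 of 8 libraries, and were not tested.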

Other observations

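Slfnl1, a Schlafen-like gene on chromosome 4 outside the cluster, was at 0 in both WT and both Zbp1-/- libraries. It was at 1.18 and 0.931 normalized counts in Tfam+/- and at 0.947 and 0.981 in the double mutant, about 1 read in each library, and was not tested.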
